A study of Homo sapiens with 12 samples.

Results

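The genes described here encode the proteins of the cytosolic ribosome. They were chosen by name, as every gene whose symbol starts with RPL or RPS followed by a number (or RPLP for the stalk proteins), leaving out the RPS6K kinases, pseudogenes and antisense names. The rule uses names only, but the members were chosen with earlier results of these data known. Where a gene had several rows of its own on the array, the row with the highest mean stood for it. Of 18417 genes with a row of their own, 68 met the rule. They were 57 core ribosomal proteins (36 of the large and 21 of the small subunit), 8 paralogs encoded by separate genes, 2 copies on the Y chromosome, which were counted but are given no values, and RPS19BP1. The last of these fits the letters of the rule but encodes a protein that binds RPS19 and is no part of the mature ribosome.

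The study measured total RNA on Affymetrix whole-transcript arrays in HEL and UKE1, established human cell lines that are both labelled as erythroleukemia. Both carry JAK2V617F, the activating mutation of the JAK2 kinase found in most patients with polycythemia vera. Growing cells were exposed to 250 nM ITF2357 (givinostat), an inhibitor of histone deacetylases, for 6 h, or kept without it. There were 4 groups of 3 arrays each: HEL untreated, HEL with ITF2357, UKE1 untreated and UKE1 with ITF2357. The mutation is shared by treated and untreated cells, so no comparison speaks to it. UKE1 was grown in a medium that also held horse serum and hydrocortisone, so line and medium cannot be told apart. The triplicates are described as independent without saying how the cultures were kept apart, so p-values measure only the spread between these samples. Because RNA was taken from whole cultures, fewer cells of a kind and less RNA per cell cannot be told apart.

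A ribosome is built from ribosomal RNA and about equal molar amounts of its proteins, which are made in the cytoplasm, imported into the nucleus and joined to the RNA in the nucleolus. Most messenger RNAs for ribosomal proteins begin with a C followed by a run of pyrimidines, the terminal oligopyrimidine or TOP sequence, through which the mTOR kinase and the RNA-binding protein LARP1 control their translation and stability. These transcripts are long-lived and among the most abundant of growing cells. Dominant loss of single ribosomal protein genes causes Diamond-Blackfan anemia, a failure of red cell production.

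The TOP sequence could be read at the annotated start of 48 of the 57 core genes, from RefSeq promoters on GRCh38.p14. In 33 of the 48 (68.8%) a run of at least 5 pyrimidines opened with C at the first annotated base, against 729 of 15843 protein-coding promoters (4.6%). Within 10 bases on either side of the start, the same was found in 43 core genes (89.6%) and in 33.8% of all protein-coding promoters. Of the 6 paralogs with a promoter, 1 had the run at its first base. The windows below hold 20 bases before the start and 20 from it onwards, and are shown so that RPL22L1, RPL26L1 and RPS27L can be set beside their partners. RPL7L1 stands without its partner, and RPS6, RPL28 and RPL32 are core genes of the results. Capitals mark the pyrimidine run that begins at the first annotated base. A window without capitals has no such run at that base.
RPS6, chr9:19380217-19380256, minus strand: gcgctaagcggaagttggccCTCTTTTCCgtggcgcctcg
RPL28, chr19:55385912-55385951, plus strand: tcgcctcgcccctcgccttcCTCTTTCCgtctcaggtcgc
RPL22, chr1:6199576-6199615, minus strand: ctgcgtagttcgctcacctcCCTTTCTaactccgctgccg
RPL22L1, chr3:170870176-170870215, minus strand: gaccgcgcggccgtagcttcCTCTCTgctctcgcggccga
RPL26, chr17:8383174-8383213, minus strand: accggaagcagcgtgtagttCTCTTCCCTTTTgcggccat
RPL26L1, chr5:172958709-172958748, plus strand: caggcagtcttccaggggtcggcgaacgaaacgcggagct
RPS27, chr1:153990742-153990781, plus strand: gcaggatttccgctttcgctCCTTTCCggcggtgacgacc
RPS27L, chr15:63157458-63157497, minus strand: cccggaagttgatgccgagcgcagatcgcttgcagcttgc
RPL7L1, chr6:42879596-42879635, plus strand: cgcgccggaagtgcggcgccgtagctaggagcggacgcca
RPL32, chr3:12841546-12841585, minus strand: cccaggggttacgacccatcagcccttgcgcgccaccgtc

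Of the paralogs shown, RPL22L1 has a run of 6 pyrimidines at its start, while RPL26L1, RPS27L and RPL7L1 have none there. Over the whole 300-base promoter and on both strands, the letters CCGGAAG, the core of sites for ETS-family factors, were found in 17 of 48 core genes (35.4%) and in 14.2% of all protein-coding promoters. The letters AAGATGG, which occur in sites of YY1, were found in 6 core genes (12.5%) against 6.4%. The TATA box letters TATAAA were found in 4 (8.33%) against 9.63%. These are matches of letters in the annotated window and no measure of binding.

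The arrays were close to one another: arrays of the same group correlated at 0.994 to 0.996, their medians lay between 6.41 and 6.5 on the log2 scale, and no array was a copy of another. Erythroid markers, set against the label shared by both lines, were higher in HEL. GATA1, the erythroid transcription factor, had a mean log2 value of 10.28 in untreated HEL and 7.46 in untreated UKE1, and ALAS2, the erythroid heme enzyme, 9.48 and 5.96. All 6 measured of 11 erythroid markers were lower in untreated UKE1, with a median log2 difference of −1.68. Of 4 measured lymphoid markers, 3 were higher in UKE1, among them the T-cell CD3 complex genes CD3E (4.96 in HEL and 8.56 in UKE1) and CD3D (4.30 and 9.15). With ITF2357, 42.4% of all genes passed the threshold (adjusted p under 0.05) in HEL and 44.3% in UKE1. Of the 6 erythroid markers, 1 rose and 2 fell in HEL, and 0 rose and 1 fell in UKE1. GATA1 fell in both lines (−0.49 and −0.60). Of the 4 lymphoid markers 1 fell in HEL and 3 fell in UKE1, with CD79A at −0.52, CD3D at −0.40 and CD3E at −0.21 in UKE1. The part of these changes in the drug comparisons, and of the differences between lines in the untreated comparison of ribosomal protein genes, was not tested.

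After 6 h of ITF2357 most core ribosomal protein genes did not pass the test in either line. In HEL 1 of the 57 rose, 8 fell and 48 were not called, and in UKE1 1 rose, 5 fell and 51 were not called (limma, Benjamini-Hochberg adjusted p under 0.05). Over all 68 members the counts were 2 up and 13 down in HEL (22.1%) and 1 up and 9 down in UKE1 (14.7%), where 42.4% and 44.3% of all genes were called. Of all genes, 22.6% rose and 19.9% fell in HEL, and 22% rose and 22.3% fell in UKE1. With trended and robust variance 15 members fell and 3 rose in UKE1, where 4240 of all genes fell and 4156 rose (45.6% called). With quantile normalization 3 members rose in each line, where 4394 of all genes rose in HEL and 4274 in UKE1. All 3 treated arrays lay beyond all 3 untreated ones in 28 members in HEL (41.2%, against 49% of all genes) and in 21 in UKE1 (30.9%, against 53.9%). The median log2 change of the core genes was −0.0036 in HEL, where the scalings tried gave −0.0032 and 0.018, and −0.031 in UKE1, where they gave −0.022 and −0.067. Without UKE1 ITF2357 replicate 1 the UKE1 median was −0.084, without ITF2357 replicate 3 it was −0.0028, and without untreated replicate 1 it was −0.049. Their median change regardless of sign was 0.063 in both lines, against 0.17 and 0.18 over all genes.

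The core genes as a body can be followed from array to array. The median log2 value of the 57 was 12.06, 12.05 and 11.95 in the 3 untreated HEL arrays and 12.01, 12.04 and 12.08 with ITF2357. In UKE1 it was 11.93, 12.04 and 12 untreated and 11.94, 11.97 and 11.80 with ITF2357. The treated and untreated arrays overlapped in both lines. By subunit, 5 of 36 large subunit genes were called in HEL and 5 in UKE1 (13.9% in each). Of the 21 small subunit genes, 4 (19%) and 1 (4.76%) were called, where all genes stood at 42.4% and 44.3%.

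**Figure D1:**
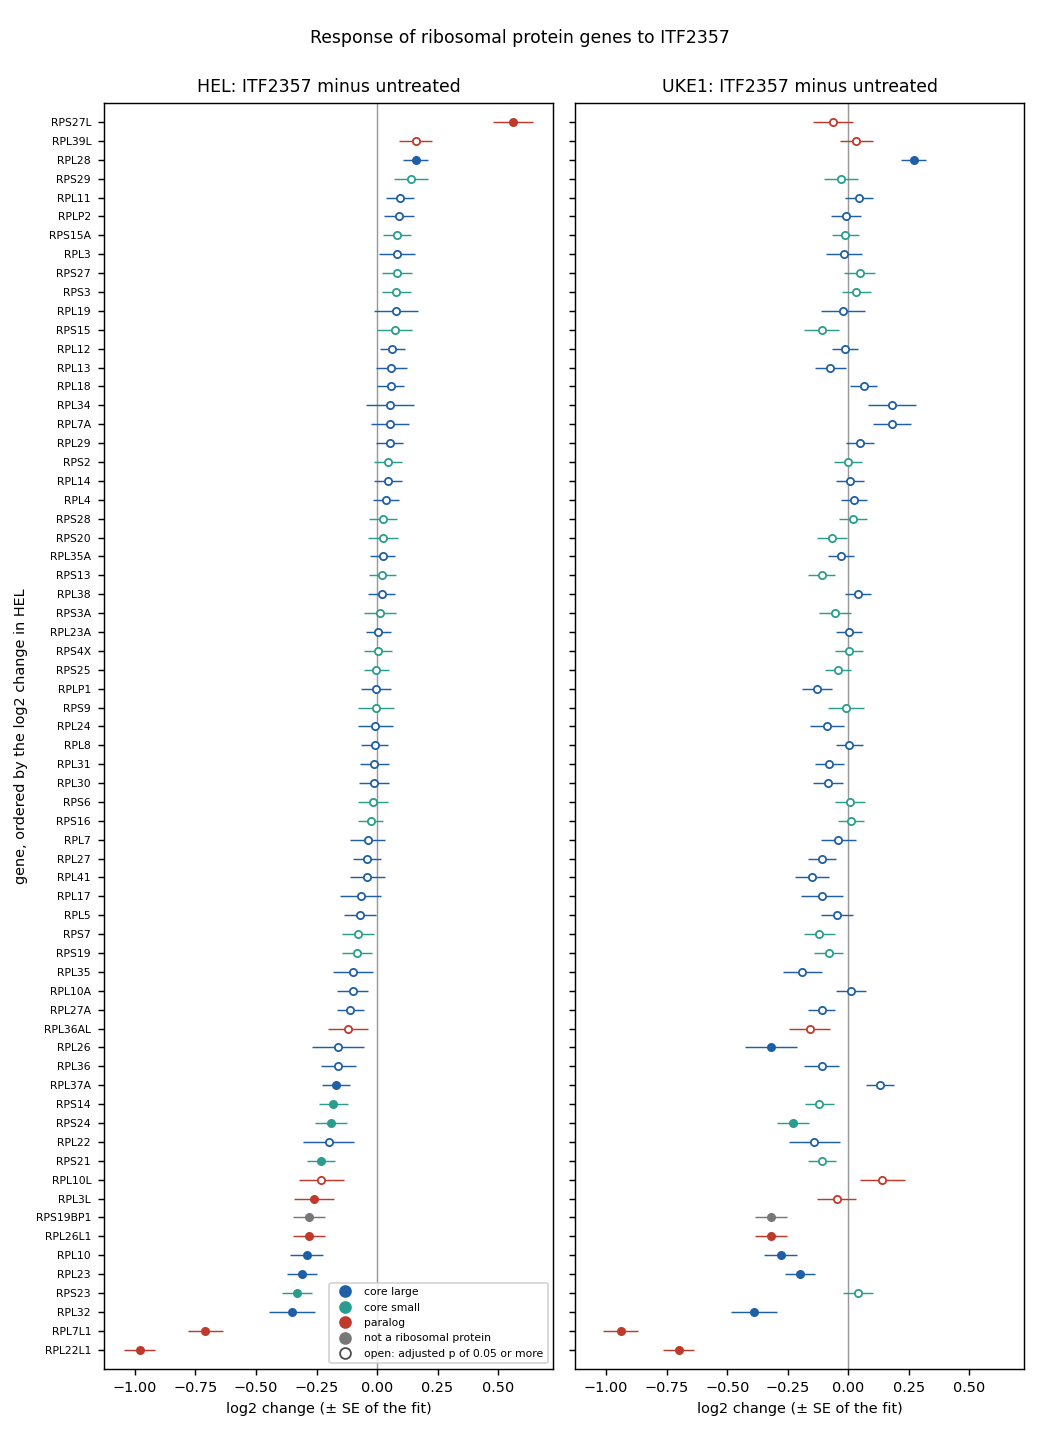
Log2 change with ITF2357 (points) and its standard error (bars) for 66 ribosomal protein genes in HEL (left) and UKE1 (right), in the order of the change in HEL, filled where the adjusted p is under 0.05. Most points lie near 0, while RPL7L1 and RPL22L1 lie lowest in both panels (−0.71 and −0.98 in HEL, −0.94 and −0.70 in UKE1) and RPS27L is the highest point of the HEL panel (0.56) but lies at −0.064 in UKE1.

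The intervals cover the spread between these arrays in the row of highest mean per gene. They do not cover other rows of the same gene, some of which fell, as described below. For 49 of 57 core genes in HEL (86%) and 47 in UKE1 (82.5%) the whole 95% interval of the change lay within 0.322 log2 units of 0, up or down, against 39.5% and 38.3% of all genes. The members with bright signals were also counted apart, beside other genes past the same limit. None of the 29 members with a mean log2 value of at least 12 was called in either line, and none had an unadjusted p under 0.05. Among the 65 other genes past that limit, 43.1% were called in HEL and 33.8% in UKE1. The median level was 12.56 for the 29 members and 12.36 for the 65 others. The limit of 12 was chosen after the values were seen, and the part of signal level in the counts was not tested.

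Among core genes past the threshold in their row of highest mean, the largest fall was 1.31-fold, that of RPL32 in UKE1. Dimmer rows of RPL27A (−1.04 in HEL and −0.72 in UKE1) and RPL41 (−0.59 in UKE1) fell further, as described below. RPL32, a large subunit protein, read 8.83, 9.15 and 8.94 in untreated HEL and 8.59, 8.56 and 8.72 with ITF2357, a log2 change of −0.35 ± 0.0945 (SE of the fit, n = 3 arrays a group; limma adjusted p = 0.00802). In UKE1 it read 8.76, 8.98 and 8.68 untreated and 8.34, 8.41 and 8.49 treated, a change of −0.39 (limma adjusted p = 0.00347). The treated arrays lay below all untreated arrays in both lines.

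RPL10, which helps to form the catalytic center and is added late in large subunit assembly, fell in both lines. It read 10.17, 10.28 and 10.11 in untreated HEL and 9.91, 9.83 and 9.96 with ITF2357, a log2 change of −0.29 ± 0.0675 (limma adjusted p = 0.00304). In UKE1 the arrays read 11.32, 11.15 and 11.19, then 10.91, 10.93 and 10.97, a change of −0.28 (limma adjusted p = 0.00343). Neither line showed an overlap.

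RPL23, a large subunit protein that also binds MDM2, fell in both lines, with log2 changes of −0.31 in HEL and −0.20 in UKE1 (limma adjusted p = 0.000934 and 0.0171). The UKE1 call was lost without untreated replicate 1, untreated replicate 3 or ITF2357 replicate 1, with adjusted p up to 0.0708. RPS24, a small subunit protein mutated in Diamond-Blackfan anemia, fell in both lines, with changes of −0.19 in HEL and −0.23 in UKE1 (limma adjusted p = 0.0292 and 0.0126). Its HEL call was lost in 6 of 20 settings, among them median centring and leaving out any of 4 HEL arrays (untreated 1 and 3, ITF2357 1 and 2), and its UKE1 call without untreated replicate 1. RPL26, which also binds the p53 messenger RNA, fell by 0.32 in UKE1 (limma adjusted p = 0.025), where the groups overlapped, and the call was lost in 5 of 20 settings, 3 of them without UKE1 untreated replicate 2 or 3 or ITF2357 replicate 3.

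Other core calls were made in HEL but not in UKE1. RPS21 fell by 0.23 in HEL (limma adjusted p = 0.00521), and its value in UKE1 was −0.11 (adjusted p = 0.168). RPS14, the small subunit gene lost in the 5q deletion of myelodysplastic syndrome, fell by 0.18 in HEL (limma adjusted p = 0.0243) and had a value of −0.12 in UKE1 (adjusted p = 0.112). The RPS14 call was lost in 6 of 20 settings, among them quantile normalization and leaving out HEL untreated replicate 2 or 3 or ITF2357 replicate 1 or 2. RPL28 was the core gene that rose in both lines. It read 10.03, 10.00 and 9.99 in untreated HEL and 10.16, 10.14 and 10.19 with ITF2357, a change of 0.16 (limma adjusted p = 0.0221). In UKE1 it read 10.58, 10.59 and 10.57, then 10.83, 10.87 and 10.84, a change of 0.27 (limma adjusted p = 0.000639). Its arrays did not overlap in either line, but the HEL call was lost in 6 of 20 settings, 4 of them leaving out HEL untreated 2 or 3 or ITF2357 1 or 3.

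Genes often used to stand for the ribosome were among those not called. RPS6, the small subunit protein phosphorylated by the S6 kinases, read 13.55, 13.61 and 13.58 in untreated HEL and 13.62, 13.55 and 13.52 with ITF2357, a change of −0.016 with a 95% interval of −0.15 to 0.12. In UKE1 its change was 0.0072 (−0.13 to 0.14). RPL5 and RPL11, which with ribosomal RNA form the particle that holds MDM2 in check, had values of −0.070 (−0.21 to 0.071) and 0.096 (−0.027 to 0.22) in HEL and by −0.048 and 0.044 in UKE1. The stalk proteins RPLP1 and RPLP2, which recruit translation factors, had values of −0.0036 and 0.091 in HEL and −0.13 and −0.0087 in UKE1. RPS19, the gene most often mutated in Diamond-Blackfan anemia, had values of −0.083 and −0.082. Of 15 measured genes of that disease (of 20 listed), 0 rose and 1 fell in HEL and 0 rose and 2 fell in UKE1. That was 6.67% and 13.3% called, against 42.4% and 44.3% of all genes.

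Changes among the 8 paralogs had an SD of 0.476 in HEL and 0.378 in UKE1, beside 0.118 and 0.114 among the core genes. Over all genes the SD was 0.415 and 0.439, so the paralogs were near all genes and the core genes narrower. The median log2 level was 7.56 for the paralogs and 12.11 for the core genes. Of the 8 paralogs, 1 rose and 4 fell in HEL (62.5%) and 0 rose and 3 fell in UKE1 (37.5%). The shares called of all genes were 42.4% and 44.3%. RPL22L1, which can take the place of RPL22 in the ribosome, read 7.86, 7.78 and 7.87 in untreated HEL and 6.84, 6.83 and 6.90 with ITF2357, a 1.97-fold fall (log2 −0.98 ± 0.0642, limma adjusted p = 4.49e-08). In UKE1 it read 8.12, 8.23 and 8.14, then 7.48, 7.54 and 7.36, a 1.63-fold fall (log2 −0.70, limma adjusted p = 7.49e-07). Treated and untreated arrays did not overlap in either line. RPL22 itself had values of −0.20 (limma adjusted p = 0.148) and −0.14 (0.314).

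RPL7L1, a paralog of RPL7 that works in large subunit assembly, was the member with the largest fall in UKE1. It read 11.33, 11.22 and 11.11 in untreated HEL and 10.52, 10.40 and 10.60 with ITF2357, a 1.64-fold fall (log2 −0.71 ± 0.0719, limma adjusted p = 2.01e-06). In UKE1 it read 10.79, 10.77 and 10.87, then 9.84, 9.93 and 9.84, a 1.92-fold fall (log2 −0.94, limma adjusted p = 1.41e-07). No treated array reached an untreated one. RPL7 itself was not called, with values of −0.038 and −0.042.

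RPL26L1 fell in both lines in its brightest row, with changes of −0.28 in HEL and −0.32 in UKE1 (limma adjusted p = 0.00329 and 0.00115). Its other row, with a mean log2 value of 6.37, had values of −0.22 and −0.29 and was not called (limma adjusted p = 0.252 and 0.118). RPL3L, a muscle form of RPL3, fell by 0.26 in HEL with overlapping arrays (limma adjusted p = 0.0195), a call lost without HEL untreated replicate 2 or 3 or ITF2357 replicate 1 or 2, and had a value of −0.049 in UKE1. RPL3 had values of 0.083 and −0.018. The values of RPL10L, RPL36AL and RPL39L lay between −0.23 and 0.16, with no call. RPS19BP1, no ribosomal protein, fell in both, with changes of −0.28 and −0.32 (limma adjusted p = 0.00276 and 0.0011).

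**Figure D2:**
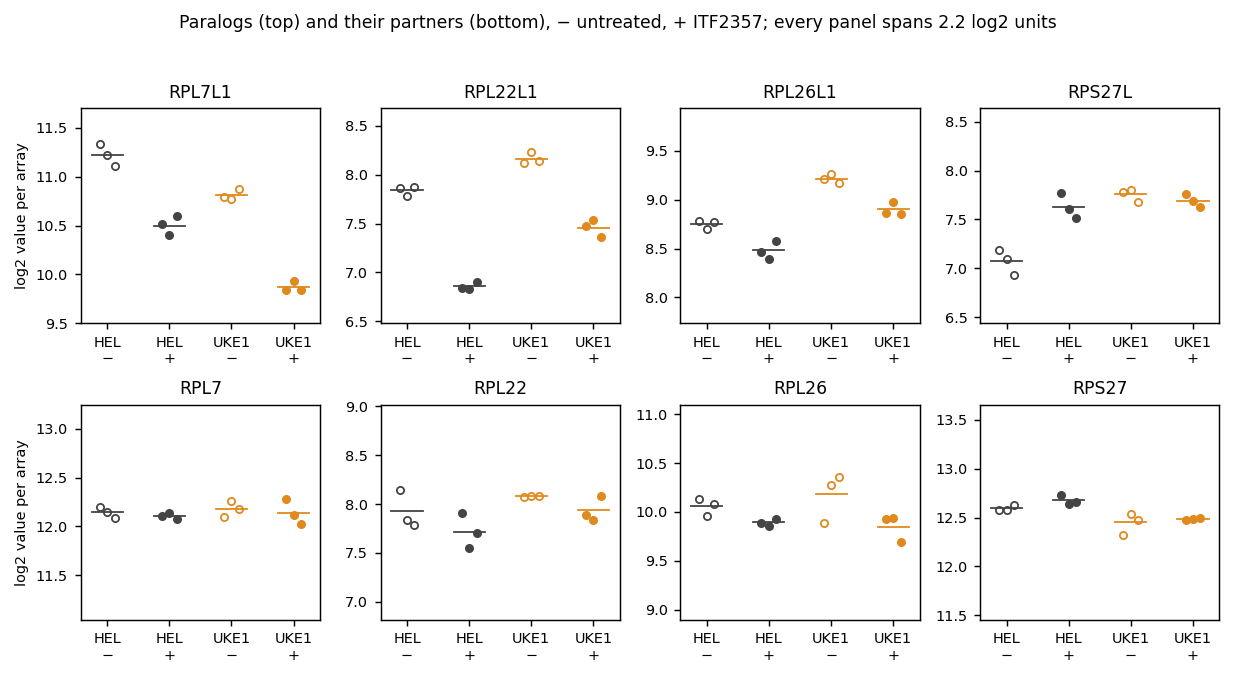
Log2 value of every array (points) and group mean (lines) for 4 paralogs (top) and their partners (bottom), without (−) and with (+) ITF2357, each panel spanning the same number of log2 units. RPL7L1 and RPL22L1 drop in both lines (−0.71 and −0.98 in HEL) while RPL7 and RPL22 were not called in HEL (−0.038 and −0.20), and RPS27L rises in HEL (0.56) from a level below that in UKE1.

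The response differed between the lines in 4 of 68 members (5.88%) by a test of the difference itself, where 23.9% of all genes passed. In 3 of them UKE1 lay above HEL and in 1 below, against 10.1% and 13.8% of all genes. None of the 29 bright members was among them, nor had an unadjusted p under 0.05, against calls in 18.5% of the 65 other bright genes. RPS27L, a paralog of RPS27 known as a p53 target, read 7.19, 7.10 and 6.93 in untreated HEL and 7.77, 7.61 and 7.51 with ITF2357, a 1.47-fold rise (log2 0.56 ± 0.0824, limma adjusted p = 7.08e-05). In UKE1 it read 7.78, 7.80 and 7.68 untreated and 7.76, 7.69 and 7.63 treated, a change of −0.064. The response in UKE1 minus that in HEL was −0.62 ± 0.117 (limma adjusted p = 0.00161). Untreated HEL was the lowest group and the other 3 groups overlapped. RPS27 had values of 0.082 and 0.046.

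RPS23, a small subunit protein of the decoding center, fell in HEL from 8.55, 8.57 and 8.62 to 8.14, 8.31 and 8.31, a change of −0.33 ± 0.062 (limma adjusted p = 0.00061). In UKE1 it read 10.49, 10.47 and 10.43, then 10.55, 10.48 and 10.48, a change of 0.039 (adjusted p = 0.664). The groups did not overlap in HEL and did in UKE1. The difference was 0.37 ± 0.0877 (limma adjusted p = 0.00811). RPL37A had values of −0.17 in HEL (adjusted p = 0.0329) and 0.13 in UKE1 (0.0911), a difference of 0.30 (limma adjusted p = 0.0186). Its HEL call was lost in 8 of 20 settings, among them both other scalings and leaving out HEL untreated replicate 1 or 2 or ITF2357 replicate 2 or 3, and its difference in 2 of 19, median centring and without UKE1 ITF2357 replicate 2. RPL22L1 fell in both lines, and the difference was 0.28 (limma adjusted p = 0.042). It was lost in 11 of 19 settings, with adjusted p up to 0.141: median centring, all rows tested, the replicate block, and without HEL untreated 1 or 3, HEL ITF2357 1 or 2, UKE1 untreated 1 or 3 or UKE1 ITF2357 1 or 2. Since every difference uses the arrays of both responses, it is no separate evidence of either response.

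The 2 lines share no array, and their responses can be set side by side. Over the 68 members the log2 changes correlated with Pearson r = 0.738 and Spearman rho = 0.581, and over all genes with 0.65 and 0.583. Without RPL7L1 and RPL22L1, chosen after their values were seen, r over the members was 0.512. These are correlations across genes, which are not independent replicates and share the same probes in both lines. Of the 68, 8 fell in both lines (11.8%, near the 12.9% of all genes), 1 rose in both (1.47%, against 14%) and 52 were called in neither (76.5%, against 42.3%).

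Several genes are measured by more than one row of the array, and in some the rows differed. The value used was that of the brightest row, and 23 members had others. RPL27A, a large subunit protein, was not called in either line in its brightest row (−0.11 in both, mean log2 value 11.65), while a row with a mean of 9.18 fell in both lines, with changes of −1.04 in HEL (limma adjusted p = 3.7e-07) and −0.72 in UKE1 (3.33e-06). RPL13 and RPL41 likewise had a dimmer row that fell in both lines (RPL13 −0.32 and −0.33, RPL41 −0.39 and −0.59) beside a brightest row that was not called. In 3 members in HEL, and the same number in UKE1, a row other than the brightest was called while the brightest was not, and every such row fell. In RPL26L1 the brightest row was called in both lines and its other row in neither. No member had rows called in opposite directions by the drug. What part of a transcript each row reads, and where in the genome its probes lie, was not analysed here. Whether a brightest row reads the gene's own transcript was therefore not tested.

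The genes that surround ribosome production were counted in the same way, in lists taken from textbook knowledge. Beside them, 22.6% of all genes rose and 19.9% fell in HEL, and 22% rose and 22.3% fell in UKE1. Of 73 mitochondrial ribosomal protein genes, which build the separate ribosome of the organelle, 2 rose and 50 fell in HEL (median log2 change −0.32) and 4 rose and 45 fell in UKE1 (−0.29). Of 15 chaperones and importins of ribosomal proteins, 0 rose and 10 fell in HEL (median −0.51) and 1 rose and 13 fell in UKE1 (−0.39). GRWD1, the chaperone of RPL3, fell in both lines (−1.21 in HEL and −0.83 in UKE1), beside RPL3 itself at 0.083 and −0.018. Of 14 RNA polymerase I genes, 1 rose and 11 fell in each line, with medians of −0.50 and −0.36.

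Of 25 measured subunit assembly factors, 2 rose and 16 fell in each line (72% called), with medians of −0.50 and −0.36. The shares of all genes called were 42.4% in HEL and 44.3% in UKE1. RRS1, which brings RPL5 and RPL11 into the large subunit, fell in both lines (−1.38 in HEL and −1.30 in UKE1). UTP20, a factor of the small subunit precursor, also fell (−2.45 and −2.63, limma adjusted p = 7.83e-10 and 1.29e-10). Of 15 other genes with TOP messenger RNAs, mostly translation factors, 2 rose and 3 fell in HEL (33.3% called). In UKE1 1 rose and 1 fell (13.3%), and the medians were −4.7e-05 and 0.03. Of 10 genes that control TOP messenger RNAs, 3 rose and 4 fell in HEL (70% called). In UKE1 4 rose and 4 fell (80%), and the medians were −0.083 and −0.003. The members with the smallest adjusted p included LARP1, which fell (−0.77 and −0.79), and EIF4EBP2, an inhibitor of translation initiation, which rose (0.58 and 0.71). FAU, whose product includes a small subunit protein but whose name lies outside the rule, fell by 0.22 in HEL (limma adjusted p = 0.0388) and had a value of −0.044 in UKE1.

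**Figure D3:**
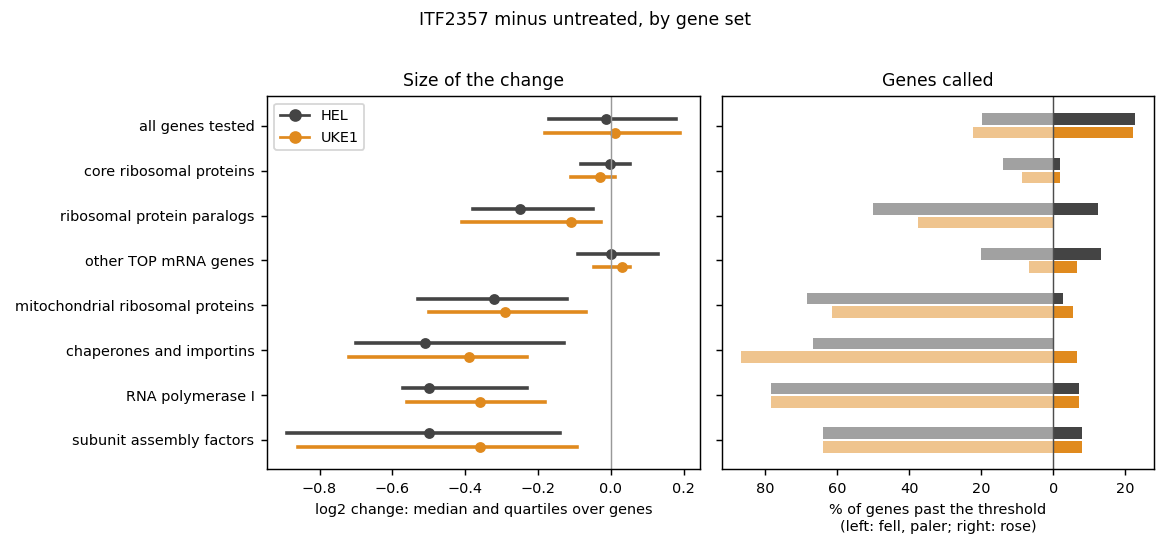
Left, median (points) and quartiles (bars) of the log2 change with ITF2357 over the genes of each list, in HEL and UKE1; right, percent of each list that fell (paler, to the left) or rose (to the right) at an adjusted p under 0.05. The core ribosomal proteins sit at −0.0036 and −0.031 with 15.8% and 10.5% called, and the mitochondrial ribosomal proteins at −0.32 and −0.29 with 71.2% and 67.1% called.

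Untreated, the lines differed in about the same share of ribosomal protein genes as of all genes, in both directions. Of the 68 members 16 were higher and 30 lower in UKE1 than in HEL (67.6%), beside 67.7% of all genes, of which 33.3% were higher and 34.4% lower. The arrays of the lines did not overlap in 52 members (76.5%), against 69.4% of all genes. Of the 29 bright members 20 were called, where 70.8% of the 65 other bright genes were. The untreated arrays are also the controls of the drug comparisons. The direction of the whole group depended on scaling: the median of the 57 core genes was −0.12 as deposited and 0.083 after quantile normalization, and the split of the members turned to 28 higher and 16 lower. The split of all genes turned too, from 6132 higher and 6339 lower to 6689 higher and 5878 lower (68.2% called). Their median was −0.00047 as deposited and 0.035 after quantile normalization. Under both scalings 12 core genes were higher and 11 lower, and the like count over all genes was not made. Single genes with large differences kept their side.

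RPS29, a small subunit protein, read 6.75, 6.71 and 6.66 in untreated HEL and 8.81, 8.86 and 8.74 in untreated UKE1, 4.28-fold higher in UKE1 (log2 2.10 ± 0.0699, limma adjusted p = 4.13e-12). RPS23 was 3.69-fold higher (log2 1.88) and RPL10 2.05-fold higher (1.03). RPS6 read 13.55, 13.61 and 13.58 in HEL and 12.29, 12.40 and 12.36 in UKE1, 2.34-fold lower in UKE1 (log2 −1.23, limma adjusted p = 3.71e-10). RPS21 was 2.63-fold lower (−1.39) and RPL17 2.42-fold lower (−1.27). The arrays of the lines did not overlap for any of these 6 genes. After quantile normalization the log2 differences were 2.15 for RPS29, 2.00 for RPS23, 1.19 for RPL10, −1.04 for RPS6, −1.29 for RPS21 and −1.16 for RPL17.

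Further differences were smaller. RPL28 (0.57), RPL35 (0.52), RPS24 (0.51) and RPS14 (0.48) were higher in UKE1, and RPL23 (−0.96), RPS25 (−0.58), RPL14 (−0.55) and RPL11 (−0.51) were lower, all called under both scalings. Among paralogs, RPS27L was higher (0.68) and RPL39L lower (−0.97). Sequence differences between the lines under a probe were not analysed here. In RPL27A the rows disagreed: the brightest was lower in UKE1 (−0.20) and the row with a mean of 9.18 higher (1.00).

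**Figure D4:**
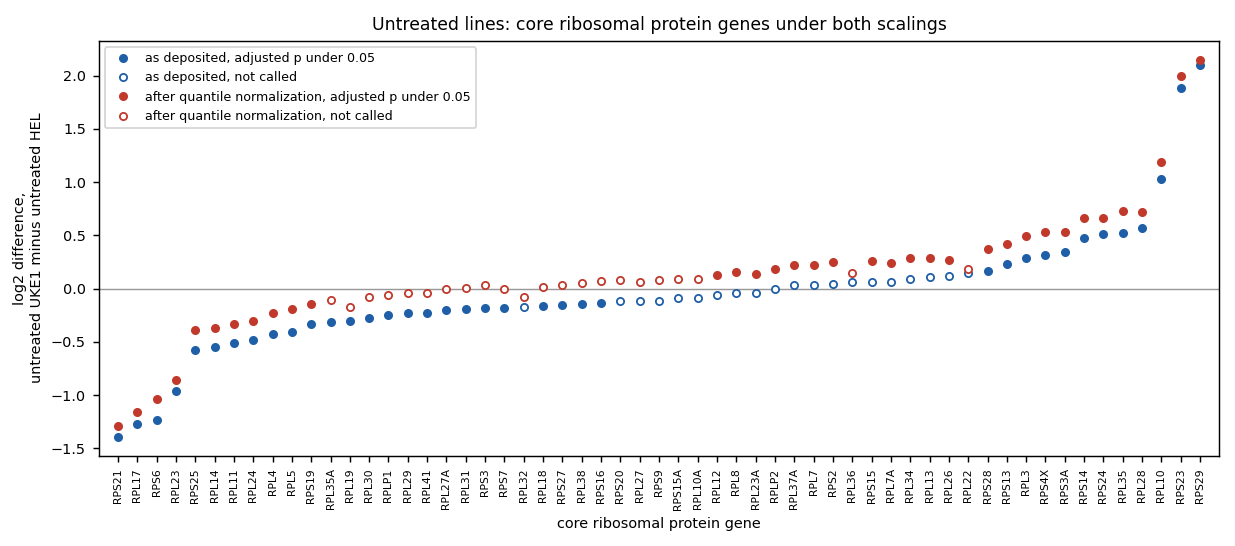
Log2 difference between untreated UKE1 and untreated HEL for the 57 core genes, in order, as deposited (blue) and after quantile normalization (red), filled where the adjusted p is under 0.05. Genes at both ends keep their sign (RPS21 at −1.39 and −1.29, RPS29 at 2.10 and 2.15) while the middle shifts upwards with quantile normalization, moving the median from −0.12 to 0.083.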

How the data were processed

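The authors deposited 1 log2 value per array row and sample, made with Affymetrix Expression Console and RMA per the submitters' processing notes. No version or further step is given in the sources used here. The base of the log was read from the range (1.26 to 14.36). Of 33297 rows, 19460 named 1 gene, 1754 several and 12083 none. Rows naming 1 gene were kept, with the row of highest mean per gene, giving 18417 genes; 11 ribosomal protein genes named only in shared rows and 8 not listed were not analysed here.

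One mean per group was fitted over all 12 arrays with limma 3.58.1 in R 4.3.3 (lmFit and eBayes, 8 residual degrees of freedom, two-sided), and p-values were adjusted over all genes tested with a threshold of 0.05. Errors are standard errors of the fit. The script was tested on simulated data. Precision is limited by 3 arrays a group. Alternatives were 2 other scalings, a filter on low values, 2 treatments of rows, only the groups compared, trended and robust variance, a replicate block and leaving out each array. Genes named were the 8 largest calls each way per drug and untreated comparison, 5 each way for the difference of responses, paralogs with their partners, fixed ribosomal proteins (RPLP1, RPLP2, RPL5, RPL11, RPS14, RPS19, RPS6) and up to 4 genes per other list with the smallest adjusted p; FAU, RPL13, RPL27A and RPL41 were named after their values were seen. The members and lists were chosen with earlier results of these data known.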

Additional observations from a re-analysis of the deposited data

Results flagged for a closer look

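The response to ITF2357 differed between UKE1 and HEL by a test of the difference in 4 members. RPS27L differed by −0.62 on the log2 scale, with a rise in HEL and no call in UKE1. RPS23 differed by 0.37, with a fall in HEL and no call in UKE1. RPL37A differed by 0.30, from −0.17 in HEL and 0.13 in UKE1. RPL22L1 differed by 0.28, with a fall in both lines. The calls of RPS27L and RPS23 held in all 19 settings run for them.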

How the results depend on the processing

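Of the 15 calls in HEL, 10 held in all 20 settings, of the 10 in UKE1 7 held, and of the 4 differences 2 held in 19. Members that rose in HEL numbered 1 with only the groups compared and with the replicate block, and 1 to 3 with an array left out. Of all genes 3863 rose in HEL with only the groups compared and 4024 with the replicate block. In UKE1, 15 fell and 3 rose with trended and robust variance, 3 rose with quantile normalization and 2 with the filter on low values. The shares of all genes called in UKE1 were 45.6%, 45% and 64.5% in these settings. For the difference of responses, 2 fell with trended and robust variance, 1 rose with median centring, and 1 to 3 rose with an array left out. Of all genes 2836 fell with trended and robust variance and 1370 rose with median centring. Untreated, quantile normalization gave a core median of 0.083 with 28 members higher and 16 lower, where 6689 of all genes were higher and 5878 lower. It turned the sign of 17 of 66 members from lower to higher, none of them called under both scalings. Those members included RPLP2 (0.18), RPS27 (0.038) and RPL10L (0.015). The cause was not tested.

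Replicate numbers showed no clear pairing: within lines the deviations of same-numbered arrays correlated between −0.0877 and 0.0645. Between untreated HEL and UKE1 they correlated between −0.0143 and 0.122. With 3 arrays a group, these values cannot show whether the cultures were paired. With the replicate block 1 member rose and 12 fell in HEL, and 1 rose and 9 fell in UKE1, where 41.2% and 42.9% of all genes were called. Only the groups compared was not run for the difference. The filter left 64 members. The deposited values carry no background measure, so signal over background was not assessed.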
